A study of Mus musculus with 32 samples.

Results

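The 10 genes described here encode heat shock proteins and chaperones, and were taken by name: Hspa1a (ENSMUSG00000091971), Hspa1b (ENSMUSG00000090877), Hspa8 (ENSMUSG00000015656), Hsph1 (ENSMUSG00000029657), Dnajb1 (ENSMUSG00000005483), Hsp90aa1 (ENSMUSG00000021270), Hsp90ab1 (ENSMUSG00000023944), Hspa5 (ENSMUSG00000026864), Hsp90b1 (ENSMUSG00000020048) and Hspb1 (ENSMUSG00000004951). All 10 have a row among the 23958 rows of the deposited table, and all 10 were among the 12651 genes that passed the filter on low counts. Their transcripts were measured in frontal cortex (the infralimbic and prelimbic areas) of 32 mice, each inoculated with the gut microbiota of a primate. The donors were humans (Homo sapiens, 12 mice), squirrel monkeys (Saimiri boliviensis, 8 mice) and macaques (Macaca mulatta, 12 mice), and every mouse received one of these microbiota, so there was no group without inoculation. The study's title states an interest in microbiota of primates and mouse neurodevelopment. For the mice, no source used here states strain, age or any earlier flora, and the number of donors is likewise unstated. The labels name a batch for each mouse but no shared cage or litter, so p-values measure the spread between these mice.

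Chaperones bind unfolded stretches of other proteins and release them when ATP is hydrolysed or exchanged. In the cytosol, HSP70 proteins take up a client with the help of a J-domain protein, an exchange factor reloads them with ATP, and HSP90 completes the folding of many kinases and receptors. Proteotoxic stress frees the transcription factor HSF1, which binds heat shock elements and raises the inducible members, whereas unfolded protein in the endoplasmic reticulum (ER) raises the ER chaperones through ER stress elements. In neurons the constitutive HSP70 protein, Hspa8, also strips clathrin from synaptic vesicles.

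Promoter stretches are shown for the 6 members whose windows held a match to one of these elements, since they include members that varied together from mouse to mouse. They come from RefSeq annotation of build GRCm38.p6 (the counts are on GRCm39), in windows from 250 bases before to 50 bases after each start site. Such a window was given for 7 of the 10 genes. Hspa8, Hsp90aa1 and Hsp90ab1 had none. Capitals mark the match.
Hspa1a: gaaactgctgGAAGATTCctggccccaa
Hspa1b: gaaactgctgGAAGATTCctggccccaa
Hsph1: ggtagaatctTTCTCGAAggctcgagaa
Hspb1: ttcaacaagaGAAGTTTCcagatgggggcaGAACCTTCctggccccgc
Hspa5: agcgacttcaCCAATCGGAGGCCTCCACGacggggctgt
Hsp90b1: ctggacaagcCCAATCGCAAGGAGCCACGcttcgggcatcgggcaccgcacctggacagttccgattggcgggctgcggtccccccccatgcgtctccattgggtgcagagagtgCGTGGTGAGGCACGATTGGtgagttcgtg

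The Hspa1a stretch lies at chr17:34972243-34972270 on the minus strand, and that of Hspa1b, with the same letters, at chr17:34959325-34959352 on the minus strand. Their 2 windows were alike at 296 of 300 positions. The Hsph1 stretch lies at chr5:149636352-149636379 (minus strand) and the Hspb1 stretch at chr5:135887792-135887839 (plus strand). The Hspa5 stretch lies at chr2:34772015-34772053 (plus strand) and the Hsp90b1 stretch at chr10:86705523-86705666 (minus strand). In the first 4 stretches the capitals are heat shock elements of 2 units, searched as GAANNTTC or TTCNNGAA. Each of these reads the same on both strands, and 7.86% and 8.52% of 32851 windows held them. Hsph1 had 2 windows, for 2 start sites, and both also held the 3-unit form, GAANNTTCNNGAA on either strand (0.603% of windows). That match overlaps both 2-unit forms and begins at position 37 or 16 after the start site. In Hspa5 and Hsp90b1 the capitals are ER stress elements, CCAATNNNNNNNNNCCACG on either strand, which 39 windows (0.119%) held. Hsp90b1 held 2 of them, at positions -212 and -107, the second on the opposite strand. The 2 windows of Dnajb1 held none of the 4 patterns. These matches describe letters only.

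The tag-based libraries, read near the 3′ ends of transcripts, held 1204598 to 2089308 counts in human mice, 1193113 to 1588716 counts in squirrel monkey mice and 1035036 to 1673882 counts in macaque mice. Levels are given as CPM, counts relative to the library total after scaling with TMM factors (edgeR's trimmed mean of M values), and 1 count was 0.658 CPM at the median depth. Each of the 6 batches and 5 plate columns held mice of 1 donor species (human in batches A and B, squirrel monkey in batches C and D, macaque in batches E and F). Donor therefore cannot be told apart from batch or from plate column, and each donor difference below is also a batch difference. The neuronal markers fitted the tissue label: 8 of 8 were detected, and their summed level was 4710 to 5860 CPM in human, 4970 to 6170 CPM in squirrel monkey and 4630 to 6610 CPM in macaque mice, with Snap25 and Syt1 leading. Of these 8, Slc17a7 was higher (4.47% of all genes were) and Syt1 and Tubb3 were lower (3.54% of all genes) in human than in macaque mice. These calls use the test and threshold given below. Myelin markers differed widely between mice of each group. The summed level of 10 oligodendrocyte markers was 770 to 10500 CPM (median 1340) in human, 891 to 5450 CPM (median 2000) in squirrel monkey and 665 to 3700 CPM (median 1020) in macaque mice, and 3 of the 10 (Cldn11, Mal and Mog) were higher in human than in macaque mice. In whole tissue, fewer cells of a type and less RNA per cell cannot be told apart.

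With human instead of macaque donors, 2 of the 10 chaperone genes passed the threshold (edgeR's quasi-likelihood test, Benjamini-Hochberg adjusted p under 0.05 over 12651 genes), where 8.01% of all genes did. Hspa8, the constitutive cytosolic HSP70, was higher (4.47% of all genes were), and Hsp90aa1, an HSP90 of the cytosol, was lower (3.54% of all genes were). The other 8, among them the stress-inducible Hspa1a and Hspa1b and the ER chaperones Hspa5 and Hsp90b1, did not pass. The median log2 fold change of the 10 was 0.00, and that of all genes was 0.00. Between squirrel monkey and macaque mice 0 of 10 passed (0.640% of all genes), with a median of -0.04 beside 0.00 for all genes, and at an unadjusted p under 0.05 there were 3 (Hspa8, Hsph1 and Hsp90aa1; 13.2% of all genes). Between human and squirrel monkey mice 0 of 10 passed (0.134% of all genes), with a median of 0.10 beside 0.01, and at an unadjusted p under 0.05 there was 1, Hspa8 (beside 1267 of the 12651 genes). Against macaque mice, the equally weighted mean of the other 2 groups differed in Hspa8 and Hsp90aa1 (2 of 10, beside 5.51% of all genes), of which Hspa8 was higher (2.70% of all genes) and Hsp90aa1 lower (2.81%). The joint test of any donor difference also called these 2 (6.15% of all genes). These comparisons share mice and are not independent of each other.

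**Figure D1:**
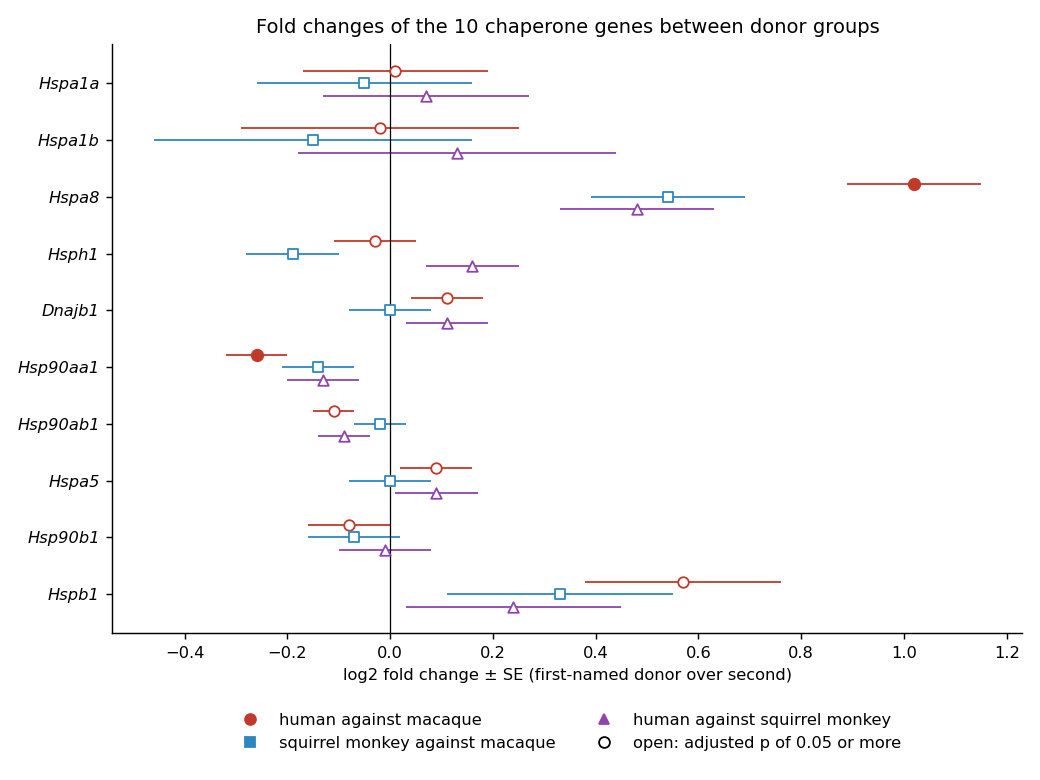
Log2 fold change (x axis) with its standard error for each of the 10 genes (y axis) in 3 comparisons of donor groups; filled symbols have an adjusted p under 0.05. Hspa8 (1.02) and Hsp90aa1 (-0.26), both human against macaque, are the filled symbols.

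Hspa8 showed the widest separation of the donor groups among the 10 genes. Its level was 278 to 627 CPM (median 538) in human mice, 210 to 540 CPM (median 327) in squirrel monkey mice and 157 to 269 CPM (median 243) in macaque mice. All 12 human mice lay above all 12 macaque mice, while 6 of 8 squirrel monkey mice did. The share of all genes whose human and macaque ranges do not overlap was not counted. The human mean of 483 ± 126 CPM was 2.03 times the macaque mean of 237 ± 30.8 CPM (SD, n = 12 each), and the fitted log2 fold change was 1.02 ± 0.13 (SE, edgeR adjusted p = 1.27e-06). Squirrel monkey mice averaged 346 ± 113 CPM (SD, n = 8) and stood between the other groups. Their log2 fold change over macaque was 0.54 ± 0.15 with an edgeR adjusted p = 0.0671, and human over squirrel monkey gave 0.48 ± 0.15 with adjusted p = 0.181, so neither neighbouring pair in this order passed the threshold. For the mean of the human and squirrel monkey groups against macaque, the log2 fold change was 0.78 ± 0.12 (edgeR adjusted p = 7.38e-05), and it was 0.71 without batch F (adjusted p = 0.0532). The squirrel monkey value turned on single mice and on batches: leaving out human replicate 12 or squirrel monkey replicate 6 or 7 gave edgeR adjusted p = 0.0483, 0.0434 and 0.0351. Without batch C the log2 fold change was 0.11 (adjusted p = 0.872), and without batch D it was 0.88 (adjusted p = 0.00136). It was 0.54 without batch B (adjusted p = 0.0219), 0.59 without batch E (adjusted p = 0.204) and 0.48 without batch F (adjusted p = 0.382).

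The squirrel monkey group was split by batch. Batches C and D shared plate column 3, with batch C in rows A to D and batch D in rows E to H. Batch and plate row cannot be told apart there. The 4 mice of batch D had 293, 250, 210 and 269 CPM of Hspa8, and the 4 mice of batch C had 540, 460, 386 and 360 CPM. Every mouse of batch D was below every mouse of batch C, and 2 of the 4 batch D mice lay within the macaque range. The log2 fold change of D over C was -0.77 ± 0.20, with an unadjusted p = 0.000437 and an edgeR adjusted p = 0.401, and 0 of 12651 genes passed in that comparison. In human mice, batch B held 546, 586, 563, 297, 600, 538, 304 and 278 CPM, and batch A held 539, 627, 428 and 485 CPM. Of these 12 mice, 3 of batch B were at or below 304 CPM, and the other 9 were at or above 428 CPM. The log2 fold change of B over A was -0.16 ± 0.17 (adjusted p = 0.726). In macaque mice, batch F averaged 229 ± 37.5 CPM (SD, n = 7) and batch E 249 ± 14.6 CPM (SD, n = 5), with a log2 fold change of -0.12 ± 0.17 (adjusted p = 1).

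**Figure D2:**
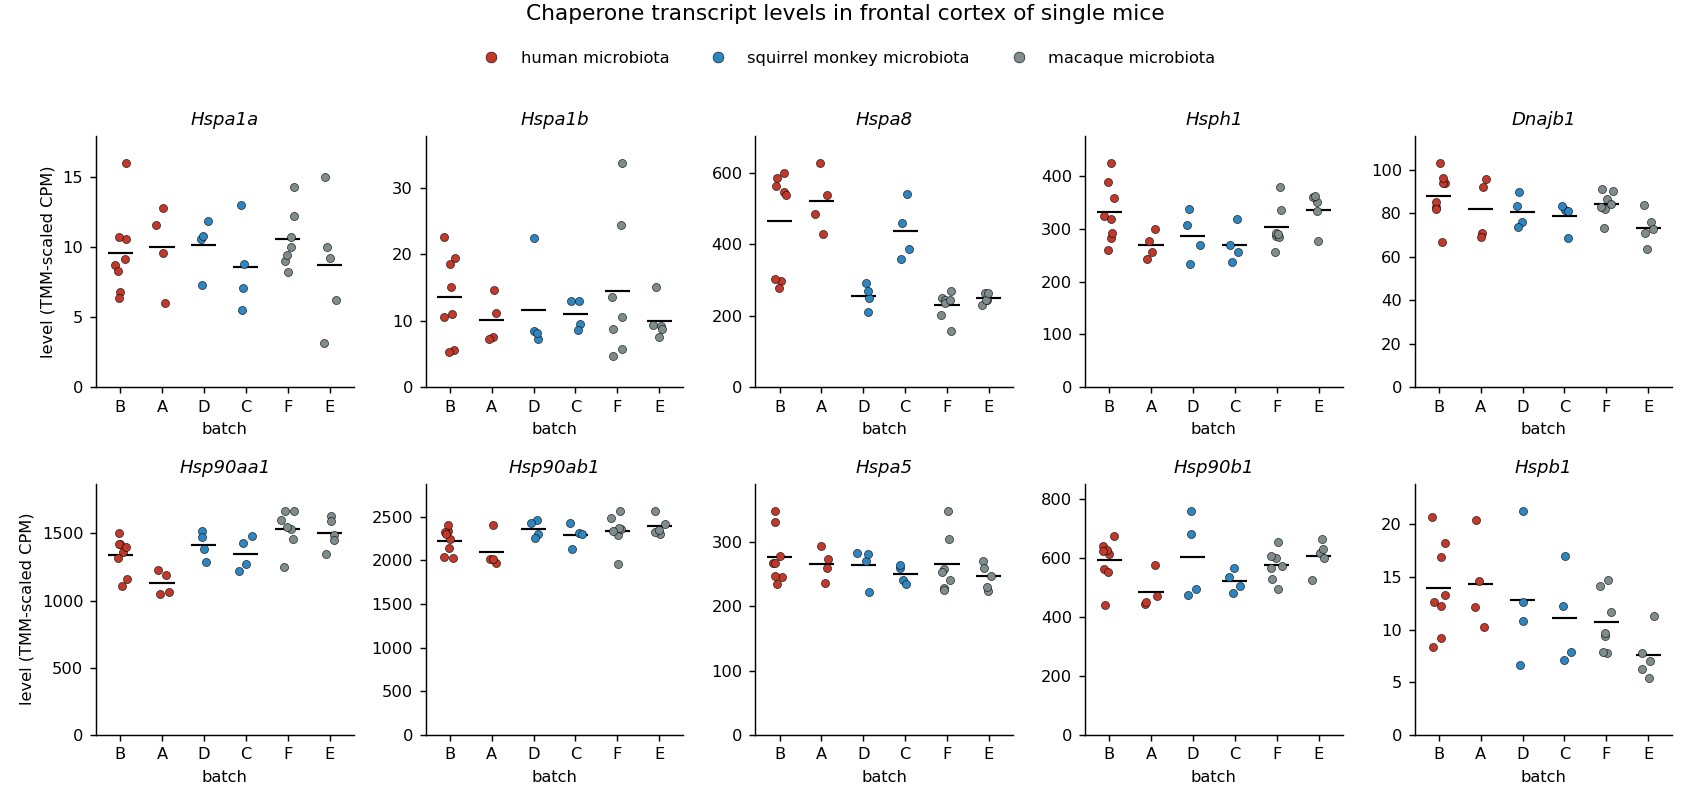
Level of each of the 10 genes (y axis, TMM-scaled CPM, from 0) in each of 32 mice, by batch (x axis), with points coloured by donor and a bar at each batch mean. Hspa8 is at 278 CPM or more in every human mouse and at 269 CPM or less in every macaque mouse. Batch D of the squirrel monkey group (210 to 293 CPM) is near the macaque level. The human and macaque ranges overlap in the other 9 genes, and the share of all genes without such overlap was not counted.

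Reads of Hspa8 could in part stem from, or go to, near-identical copies. Its last 300 bases had 8 copies elsewhere in the genome annotation, the most of any member, and 7 of these have a row in the table. Together the copies held 465 counts beside 17911 for Hspa8 itself. In single mice the copies made up 0.808% to 4.56% of the joint counts in human, 1.49% to 5.07% in squirrel monkey and 1.08% to 6.4% in macaque mice. No source used here says how reads with several matches were counted. Hspa8 also overlaps Snord14c, Snord14d and Snord14e on the same strand.

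Hspa1a and Hspa1b, the stress-inducible HSP70 genes, did not pass the threshold in any donor comparison. Hspa1a, whose protein is scarce until HSF1 is active, had 6.03 to 16 CPM (median 9.37) in human, 5.52 to 13 CPM (median 9.69) in squirrel monkey and 3.14 to 15 CPM (median 9.71) in macaque mice. Hspa1b, which encodes a nearly identical protein, had 5.34 to 22.6 CPM (median 11.1) in human, 7.32 to 22.5 CPM (median 9.05) in squirrel monkey and 4.71 to 33.7 CPM (median 9.26) in macaque mice. The groups overlapped throughout for both, and edgeR's adjusted p for any donor difference was 0.975 for Hspa1a and 0.944 for Hspa1b. Both were near the limit of these libraries, with 5 to 25 counts per mouse for Hspa1a and 7 to 49 for Hspa1b, so that only large differences were detectable. The log2 fold change of human over macaque was 0.01 ± 0.18 for Hspa1a and -0.02 ± 0.27 for Hspa1b (SE). Hspa1a overlaps Gm20481 on the opposite strand, and without known strand use their reads cannot be told apart.

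The partners of HSP70 were measured with more counts. Hsph1, an exchange factor that reloads HSP70 with ATP and is itself an HSF1 target, had 243 to 424 CPM (median 296) in human, 234 to 337 CPM (median 269) in squirrel monkey and 255 to 378 CPM (median 312) in macaque mice. Its lowest group mean was that of squirrel monkey mice, 278 ± 37.9 CPM (SD, n = 8), beside 317 ± 40.6 CPM in macaque mice (SD, n = 12). That difference, a log2 fold change of -0.19 ± 0.09, had an unadjusted p = 0.0472 and an edgeR adjusted p = 0.371. Dnajb1, the J-domain protein that delivers clients to HSP70 under stress, had 66.6 to 103 CPM (median 88.6) in human, 68.6 to 89.9 CPM (median 81.2) in squirrel monkey and 63.7 to 91.1 CPM (median 82.2) in macaque mice. The groups overlapped, although 6 of 12 human mice were above all macaque mice, and edgeR's adjusted p for any donor difference was 0.524 (0.368 for Hsph1). Dnajb1 correlated with the summed oligodendrocyte markers across the 32 mice (r = -0.60 with donor means removed), whose part in its level was not tested.

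Of the 2 cytosolic HSP90 genes, Hsp90aa1, the more stress-responsive one, was lower with human than with macaque microbiota. Its level was 1050 to 1500 CPM (median 1270) in human, 1220 to 1520 CPM (median 1400) in squirrel monkey and 1250 to 1670 CPM (median 1540) in macaque mice. The groups overlapped, but 0 of 12 human mice and 0 of 8 squirrel monkey mice reached above the macaque median, and 6 of 12 human mice were below all macaque mice. The human mean of 1270 ± 154 CPM was 0.834 times the macaque mean of 1520 ± 126 CPM (SD, n = 12 each), with a log2 fold change of -0.26 ± 0.06 (SE, edgeR adjusted p = 0.0034). Squirrel monkey mice averaged 1380 ± 111 CPM (SD, n = 8), and neither step of the order passed: the log2 fold change was -0.14 ± 0.07 over macaque (adjusted p = 0.364) and -0.13 ± 0.07 for human over squirrel monkey (adjusted p = 0.534). The human and squirrel monkey groups averaged with equal weight gave -0.20 ± 0.05 against macaque (edgeR adjusted p = 0.0191), a call lost without batch A, C, E or F (adjusted p = 0.0686, 0.109, 0.101 and 0.223). The call of human against macaque was lost without batch A (-0.18, edgeR adjusted p = 0.0814) and without batch F (-0.25, adjusted p = 0.076), and without batch B the value was -0.43. Leaving out single mice did not end it, with adjusted p between 0.00134 and 0.00879.

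Within the human group Hsp90aa1 was at 1340 ± 133 CPM in batch B (SD, n = 8) and 1130 ± 89.3 CPM in batch A (SD, n = 4), a log2 fold change of 0.24 ± 0.08 with an unadjusted p = 0.00572 and an edgeR adjusted p = 0.273. That batch difference was about as large as the donor difference. Across the 32 mice with donor means removed, Hsp90aa1 had r = -0.40 with the log2 library total. With the library total as a covariate, the Hsp90aa1 log2 fold change of human over macaque was -0.21 (edgeR adjusted p = 0.0388). The adjusted p of any donor difference in Hsp90aa1 was then 0.0825, against 0.0126 without the covariate.

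Hsp90ab1, the constitutive cytosolic HSP90, had the same order of groups without passing the threshold. It had 1970 to 2400 CPM (median 2190) in human, 2130 to 2460 CPM (median 2310) in squirrel monkey and 1960 to 2570 CPM (median 2350) in macaque mice. Of 12 human mice, 2 were above the macaque median, and the ranges overlapped. The log2 fold change of human over macaque was -0.11 ± 0.04 (SE, unadjusted p = 0.0163, edgeR adjusted p = 0.113). Hsp90ab1 was the steadiest of the 10 genes between mice of the same donor group.

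The 2 ER chaperones whose promoter stretches carry ER stress elements did not differ past the threshold between donor groups. Hspa5 (BiP), the ER HSP70 that holds the stress sensors inactive, had 234 to 348 CPM (median 268) in human, 222 to 283 CPM (median 262) in squirrel monkey and 224 to 349 CPM (median 251) in macaque mice. Hsp90b1 (GRP94), the ER HSP90 that folds integrins and Toll-like receptors, had 440 to 676 CPM (median 571) in human, 474 to 762 CPM (median 520) in squirrel monkey and 497 to 665 CPM (median 601) in macaque mice. The ranges of all 3 groups overlapped for both genes. The joint adjusted p (edgeR) was 0.658 for Hspa5 and 0.772 for Hsp90b1, and the human over macaque log2 fold changes were 0.09 ± 0.07 and -0.08 ± 0.08 (SE). Hsp90b1 overlaps 1810014B01Rik on the opposite strand, so its reads are uncertain in the same way as those of Hspa1a. On the same strand it also overlaps Gm15344 and Gm25745, which known strand use would not separate.

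Hspb1 (Hsp25), a small heat shock protein that holds unfolded clients without ATP, came close to the threshold. It had 8.33 to 20.7 CPM (median 12.9) in human, 6.65 to 21.3 CPM (median 11.5) in squirrel monkey and 5.44 to 14.7 CPM (median 8.64) in macaque mice, from 7 to 34 counts per mouse. Of 12 human mice, 11 were above the macaque median and 4 were above all macaque mice, so the ranges overlapped. The log2 fold change of human over macaque was 0.57 ± 0.19 (SE, unadjusted p = 0.00475, edgeR adjusted p = 0.0556), and the joint adjusted p was 0.137. Its side of the threshold depended on single mice: over the 32 mice left out in turn the adjusted p ran from 0.0324 to 0.112, and 8 of them brought it under 0.05. With DESeq2 it was 0.0467. The log2 fold change was 0.38 without batch E (adjusted p = 0.387) and 0.86 without batch F (adjusted p = 0.0786), and with oligodendrocyte marker level as a covariate it was 0.47 (adjusted p = 0.158). Across mice, with donor means removed, Hspb1 correlated with the summed markers of astrocytes (r = 0.65), mural cells (r = 0.66) and meningeal fibroblasts (r = 0.65). For the other lists r was 0.55 (endothelial), 0.46 (microglia), 0.35 (blood cell), 0.26 (oligodendrocyte) and -0.44 (neuron). The mural markers summed to 128 to 454 CPM in human, 126 to 345 CPM in squirrel monkey and 151 to 374 CPM in macaque mice, and the astrocyte markers to 2410 to 3640 CPM, 2300 to 3530 CPM and 2690 to 3670 CPM in the same order. For the meningeal fibroblast markers the sums were 51 to 228 CPM in human, 67 to 169 CPM in squirrel monkey and 53.9 to 244 CPM in macaque mice. None of these markers was at 0 in all mice, and their part in the level of Hspb1 was not tested.

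Between batches of the same donor, 0 of the 10 genes passed the threshold in batch B over A (0.0237% of all genes), in D over C (0% of all genes) or in F over E (0% of all genes). By unadjusted p under 0.05 there were 3 in B over A (11.6% of all genes), 1 in D over C, Hspa8 (6.98% of all genes), and 0 in F over E (3.15% of all genes). Besides Hsp90aa1, the 3 genes of B over A were Hsph1 and Hsp90b1. Hsph1 averaged 331 ± 55.8 CPM in batch B (SD, n = 8) and 269 ± 25 CPM in batch A (SD, n = 4), with a log2 fold change of 0.30 ± 0.12 (unadjusted p = 0.0137, edgeR adjusted p = 0.326). Hsp90b1 averaged 593 ± 73.3 CPM in batch B (SD, n = 8) and 486 ± 61.9 CPM in batch A (SD, n = 4), with a log2 fold change of 0.28 ± 0.11 (unadjusted p = 0.0124, edgeR adjusted p = 0.326). All 3 were higher in batch B, the larger human batch.

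The 10 genes differed in how much they varied between mice of the same donor. Hspa8 had a coefficient of variation of 27.2%, beside 4.78% from counting alone and a median of 10.3% over the 500 genes of most similar count. Hspa1b varied by 55.2%, beside 26.4% from counting and 28.2% for its 500 neighbours. These 2 genes stood furthest above genes of like count. Hsph1 (15.2% beside 10.5%) and Hsp90b1 (14.1% beside 10.2%) were moderately above, and Hspa5 (12.7% beside 10.5%) and Hspb1 (34.2% beside 28.6%) slightly so. Hspa1a (30.6% beside 31.6%), Dnajb1 (11.7% beside 12.7%) and Hsp90aa1 (9.65% beside 10.2%) were near their neighbours. Hsp90ab1 varied least, by 6.62%, beside 10.1% for its neighbours.

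Part of this variation was shared. Of the 45 pairs of members, 9 had a correlation past the threshold over the 32 mice with donor means removed (permutation test, Benjamini-Hochberg adjusted over the 45), and all 9 were positive. They join 5 genes, namely Hsph1, Hsp90aa1, Hsp90ab1, Hspa5 and Hsp90b1, in every pairing but that of Hsp90aa1 with Hspa5 (r = 0.41, adjusted p = 0.093). This group crosses the 2 compartments, since Hspa5 and Hsp90b1 act in the ER and the other 3 in the cytosol. The closest pair was Hsph1 and Hsp90b1, with Pearson's r = 0.81 and Spearman's rho = 0.82. Its permutation p = 1e-05 is the smallest that 100000 permutations can give, and the adjusted p was 0.00045. Hsp90aa1 and Hsp90ab1 had r = 0.72 and rho = 0.67 (permutation test, adjusted p = 0.00135 for r and 0.00288 for rho). Hspa5 and Hsp90b1, the pair with ER stress elements, had r = 0.62 and rho = 0.67 (permutation test, adjusted p = 0.00153 and 0.000337).

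The remaining 6 pairs ranged from r = 0.55 (Hsp90ab1 with Hspa5) to r = 0.71 (Hsp90ab1 with Hsp90b1), and the same 9 pairs passed by rho. All 9 also passed within batches, with batch means removed, where r was 0.77 for Hsph1 with Hsp90b1, 0.71 for the 2 cytosolic HSP90 genes and 0.68 for Hspa5 with Hsp90b1. Without the 2 mice farthest from the median of the first gene, r for these 3 pairs was 0.82, 0.63 and 0.62, and all 9 pairs passed. Outside that group of 5, no pair passed. Hspa1a and Hspb1 had r = 0.43 (permutation test, adjusted p = 0.0658), and the near-duplicate genes Hspa1a and Hspa1b had r = 0.17 (adjusted p = 0.623) at their low counts. Hspa8, the member that moved most with the donor, had r = -0.45 with Hsp90aa1 and between -0.24 and 0.05 with the other 8 genes.

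**Figure D3:**
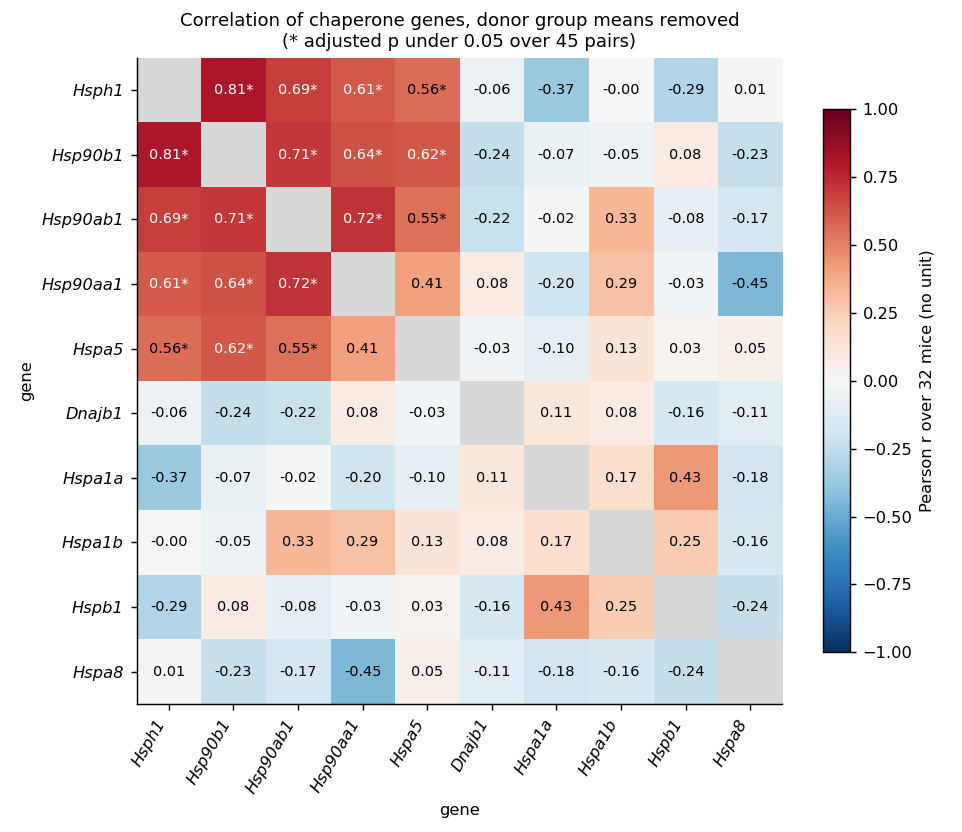
Pearson's r between the 10 genes (both axes) over 32 mice, on log2 CPM with donor group means removed; colour runs from -1 (blue) to 1 (red), and an asterisk marks an adjusted p under 0.05 over the 45 pairs. The 9 marked pairs all lie among Hsph1, Hsp90b1, Hsp90ab1, Hsp90aa1 and Hspa5, with r from 0.55 to 0.81.

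The genes most like each member across the 32 mice (Pearson's r on log2 CPM with donor means removed, over 12596 genes, given without a test) differed by member. Stip1, the adaptor that hands clients from HSP70 to HSP90, was first for Hsph1 (r = 0.85), followed by Kpna1 (r = 0.81) and Ndfip1 (r = 0.77). For Hsp90b1, Psip1 was first (r = 0.87), followed by Stip1 (r = 0.85) and Cbx5 (r = 0.84). Wdr1 was first for Hspa5 (r = 0.68), followed by Pdia6, an ER disulfide isomerase (r = 0.68), and Vamp4 (r = 0.65). Dynll1, a dynein light chain, was first for both Hsp90aa1 (r = 0.76) and Hsp90ab1 (r = 0.81). For Hspb1, Fads1 was first, followed by Vtn and Thrsp (r = 0.72 each). Vtn, which brain pericytes express, is also among the mural markers summed above. Hspa1a was most like Pdpn (r = 0.68), Hspa1b most like Kctd6 (r = 0.80) and Dnajb1 most like Evc2 (r = 0.73).

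Hspa8 followed another set of genes. Most like it were Rpl13 (r = 0.94) and Rpl19 (r = 0.93), which encode proteins of the large ribosomal subunit, and the gene model Gm13341 (r = 0.91), with r of 0.92, 0.90 and 0.89 once batch means were removed. Rpl13 had 74.1 to 195 CPM (median 170) in human, 79.3 to 175 CPM (median 92.4) in squirrel monkey and 41.9 to 82.1 CPM (median 67.9) in macaque mice. It shared the split of the squirrel monkey mice: 79.3 to 85.2 CPM in batch D and 99.7 to 175 CPM in batch C, without overlap. Rpl19 showed it too, with 111 to 125 CPM in batch D and 150 to 227 CPM in batch C. So did Gm13341, with 88.5 to 105 CPM in batch D and 148 to 267 CPM in batch C. Like Hspa8, Rpl19 had no overlap between human (125 to 275 CPM) and macaque mice (61.3 to 112 CPM). Those ranges overlapped for Rpl13 and for Gm13341 (94.2 to 276 CPM in human, 38.9 to 102 CPM in macaque mice).

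Many of the genes most like Hspa8 carry Rpl or Rps symbols, and many have copies elsewhere in the genome. Of the 20 genes most like Hspa8, 12 have a near-identical copy of their 3′ end (at least 100 of the last 300 bases at 95% identity or more), and 11 carry Rpl or Rps symbols. Of the 12589 annotated genes whose mean reached 5 CPM, 1390 have such a copy. Of all 12596 genes with that mean, 72 are named Rpl or Rps and a number. For each of the other 9 members, 0 to 4 of the 20 most similar genes had one. Hspa8 itself has 8 copies, Rpl13 has 6, Rpl19 has 9 and Gm13341 has 0. Hspa8 also had r = -0.64 with the summed microglial markers, which reached 373 to 557 CPM in human, 378 to 512 CPM in squirrel monkey and 393 to 538 CPM in macaque mice, with none of the 8 at 0 in all mice. It had r = 0.37 with the log2 library total. With the library total as a covariate, the Hspa8 log2 fold change of human over macaque was 0.90 (edgeR adjusted p = 5.91e-05). The part of the copies and of the microglial markers in the level of Hspa8 was not tested. With oligodendrocyte marker level as a covariate, a setting chosen after seeing the data, its log2 fold change of human over macaque was 1.03.

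**Figure D4:**
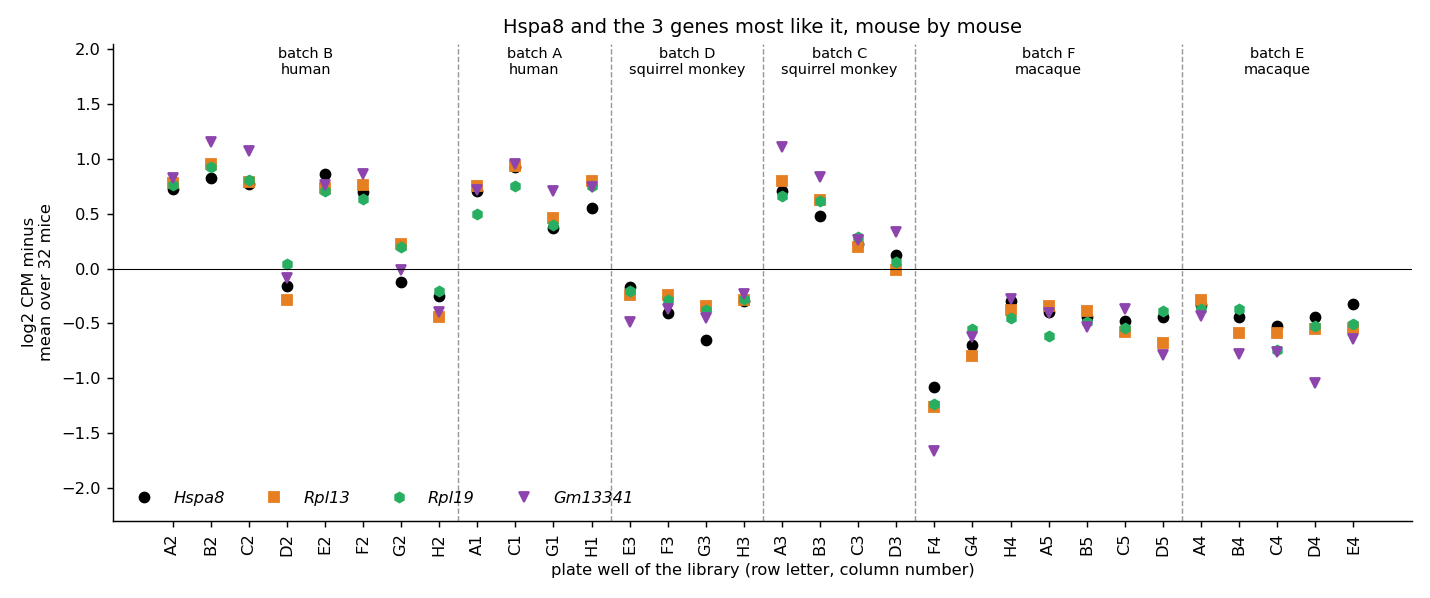
Log2 CPM of Hspa8, Rpl13, Rpl19 and Gm13341 in each of 32 mice, minus each gene's mean over all mice (y axis, log2), by plate well and batch (x axis). The 4 genes are high and low in the same mice (r from 0.91 to 0.94 with Hspa8), including the split between batches D and C of the squirrel monkey group.

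Other genes of protein folding were taken as 6 lists, of which 7 of 103 measured genes (6.80%) passed between human and macaque mice, beside 8.01% of all genes. Of 23 measured cytosolic chaperones and HSF1 targets outside the 10 members, 0 were higher and 1 was lower in human than in macaque mice. The lower one was Dnajb4, a J-domain protein, at 53 ± 7.33 CPM in human and 67.2 ± 7.88 CPM in macaque mice (SD, n = 12 each), a log2 fold change of -0.34 ± 0.07 (edgeR adjusted p = 0.00256). Of 25 cochaperones of HSP90 and HSP70, 0 were higher and 2 were lower. They were Ppp5c, a phosphatase that binds HSP90 (-0.33 ± 0.09, adjusted p = 0.014), and Dnajb6, a J-domain protein that restrains aggregation (-0.20 ± 0.06, adjusted p = 0.0296). The list medians, 0.02 and -0.02, stood beside 0.00 for all genes.

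Of 31 ER chaperones and genes of the unfolded protein response, 1 was higher and 1 was lower in human than in macaque mice, with a list median of 0.00. Hyou1, an exchange factor for Hspa5, averaged 36.5 ± 7.54 CPM in human and 27.6 ± 3.71 CPM in macaque mice (SD, n = 12 each), a log2 fold change of 0.41 ± 0.11 (edgeR adjusted p = 0.0187). Atf6, a sensor of ER stress, averaged 53.7 ± 7.61 CPM in human and 66.4 ± 13.2 CPM in macaque mice (SD, n = 12 each), a log2 fold change of -0.30 ± 0.09 (edgeR adjusted p = 0.0308). For Atf6, leaving out 1 of 6 mice in turn ended the call (highest adjusted p = 0.0691), as leaving out 1 of 7 mice did for Dnajb6 (highest adjusted p = 0.0621). In the comparison of the mean of human and squirrel monkey with macaque, Herpud1, which takes part in ER-associated degradation, was higher by 0.35 ± 0.10 on the log2 scale (edgeR adjusted p = 0.0239), and without macaque replicate 1 or 5 its adjusted p was 0.0515 and 0.051. Of 16 other settings, among them leaving out each batch, the human against macaque call held in 15 for Dnajb4, 12 for Ppp5c, 11 for Dnajb6, 11 for Hyou1 and 8 for Atf6, with adjusted p up to 0.0619, 0.161, 0.311, 0.255 and 0.187 for these genes. The Herpud1 call of the mean comparison held in 12 of 16, with adjusted p up to 0.263.

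Of 12 mitochondrial chaperones and proteases, 1 was higher in human than in macaque mice, the protease Lonp1 (0.23 ± 0.07, edgeR adjusted p = 0.0243), with a list median of 0.07. Of 14 genes of the TRiC chaperonin and prefoldin, 1 was higher, the prefoldin subunit Pfdn5 (0.19 ± 0.05, edgeR adjusted p = 0.0184), with a median of -0.01. Over the same 16 settings the calls held in 10 for Lonp1 (adjusted p up to 0.282) and 13 for Pfdn5 (adjusted p up to 0.356). Of 7 other small heat shock proteins, 2 were measured and 0 passed. Cryab, the other major small heat shock protein of brain and an oligodendrocyte transcript, averaged 97.3 ± 91.3 CPM in human and 55 ± 24 CPM in macaque mice (SD, n = 12 each), a log2 fold change of 0.85 ± 0.31 with an edgeR adjusted p = 0.0794. For Hspb8 the value was 0.32 ± 0.21 (adjusted p = 0.36).

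Immediate early genes, which respond to neuronal activity and to handling, were read beside the chaperones. Of 17 measured, 0 passed between human and macaque mice, 3 had a positive log2 fold change, and the list median was -0.21. Between batches of 1 donor the list moved further in B over A (16 of 17 positive, median 0.43) and in F over E (16 of 17, median 0.42). It moved less in D over C, where 11 of 17 were positive with a median of 0.06. In each of these batch comparisons 0 passed. In squirrel monkey over macaque mice 1 passed: Nr4a2, an orphan nuclear receptor, at 35.5 ± 8.88 CPM in squirrel monkey mice (SD, n = 8) and 20.3 ± 8.38 CPM in macaque mice (SD, n = 12), with a log2 fold change of 0.84 ± 0.20 (edgeR adjusted p = 0.0324). Leaving out 1 of 11 mice in turn ended that call, with adjusted p up to 0.102, and without batch C, D, E or F in turn it was also lost. In squirrel monkey over macaque mice 0 genes of the other 6 lists passed, and in human over squirrel monkey mice 0 genes of all 7 lists passed.

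**Figure D5:**
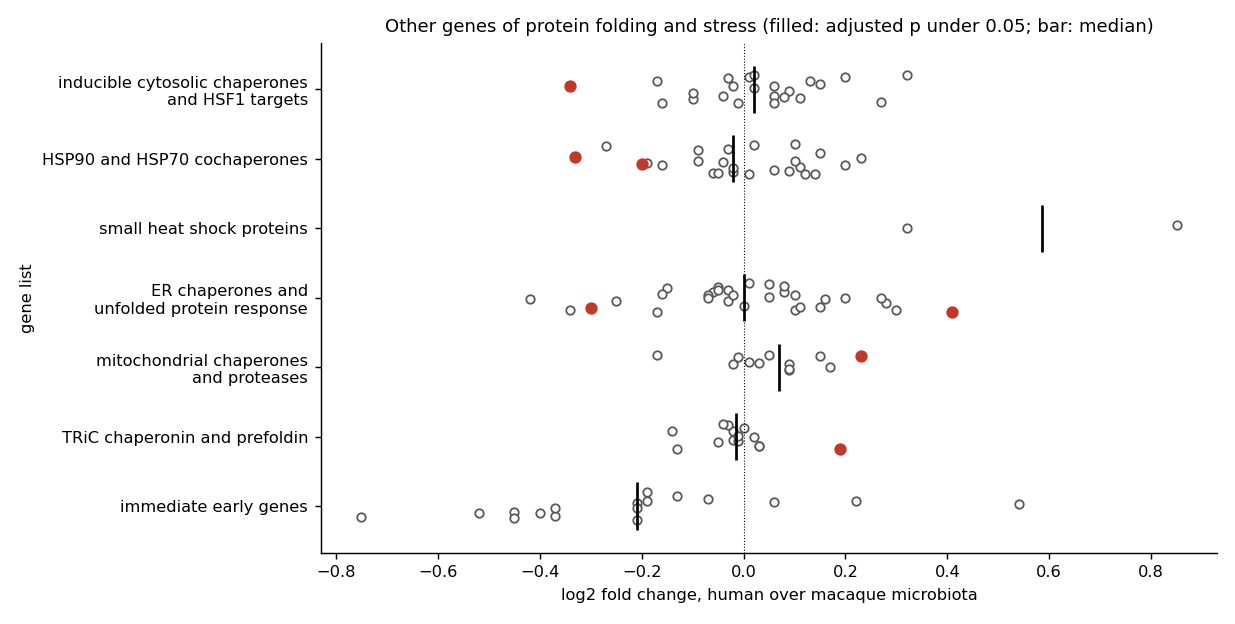
Log2 fold change of human over macaque microbiota (x axis) for the measured genes of 7 lists (y axis), 1 point per gene, filled where the adjusted p is under 0.05, with a bar at each list's median. Filled points are 1 of 23 cytosolic chaperones, 2 of 25 cochaperones, 2 of 31 ER genes, 1 of 12 mitochondrial genes and 1 of 14 chaperonin genes, and the immediate early genes have a median of -0.21.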

How the data were processed

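The authors deposited 1 table of whole-number counts per Ensembl gene. Libraries were tag-based (TagSeq, single reads), per the labels' protocols, and the genome build is GRCm39, per the submitters' processing notes. For the aligner, the counter, the annotation, strand use and reads with several matches, the sources used here state nothing. A further 3 columns of counts match no sample and were not used. Of 23958 rows, 76 had no gene symbol (0.031% of counts) and were kept under their Ensembl identifiers.

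The main test was edgeR 4.0.16 (R 4.3.3), with filterByExpr on donor group (minimum count 10, minimum total 15), TMM factors (0.955 to 1.04), and a quasi-likelihood fit to all 32 mice with donor group as the term, or with the 6 batches for batch comparisons. Adjustment was by Benjamini-Hochberg over all 12651 genes at a threshold of 0.05. The test was tried on simulated counts. Alternatives were DESeq2 1.42.0, limma 3.58.1 voom, other scalings and filters, sums per batch, batch as a random block, covariates, and leaving out each batch or mouse. The 160 pairs of mice of 1 donor differed by more than counting error (chi-square per degree of freedom 1.41 to 7.24). Correlations used log2 CPM (prior count 2), with 100000 permutations in numpy 2.4.6 and ranks from scipy 1.17.1. Copies were found with BLAST 2.17.0 against GENCODE transcripts of the earlier mouse build.

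The members and the gene lists were chosen with earlier results of these data known. All 10 members are named. From each list come the genes past the threshold, at most 4 per comparison, otherwise up to 2 of smallest p. The 3 genes most like each member may be named. The text names fewer where the rule allows more.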

Additional observations from a re-analysis of the deposited data

Results flagged for a closer look

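One chaperone value stood apart from its group. Hspa1b, the stress-inducible HSP70, was at 22.5 CPM in squirrel monkey replicate 7 (batch D, 34 counts), and the next highest of the 8 squirrel monkey mice was at 13 CPM. The gap was 0.622 of the group's range, above Dixon's critical value of 0.526 for 8 samples. Among samples drawn alike, chance gives such a value in about 1 in 20 groups for a single gene. All 10 members were searched at both ends of the group, which raises that chance. Groups of more than 10 mice were not examined this way. Human mice reached 22.6 CPM and macaque mice 33.7 CPM.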

How the results depend on the processing

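In human against macaque mice, Hspa8 and Hsp90aa1 kept their direction under every alternative run, and 2 members passed, but 1 did without batch A and without batch F, where Hsp90aa1 was lost. There 3 passed, with Hspb1, for library totals without TMM, with DESeq2 and without batch D, and 2 to 3 when leaving out single mice. In squirrel monkey against macaque mice 0 members passed, but 1 did with DESeq2, without batch B and without batch D, and 0 to 1 when leaving out single mice. In human against squirrel monkey mice 1 passed with limma voom sample weights and without batch C. For the mean of the human and squirrel monkey groups against macaque, 1 passed instead of 2 with counts summed per batch, without batch A, C or E and with oligodendrocyte markers as a covariate (added after seeing the data), and 0 without batch F. In the joint donor test 1 passed instead of 2 with counts summed per batch, with the library total as a covariate and without batch A, E or F. The cause was not tested. The 9 correlated pairs stayed 9 in each setting. Library totals without TMM gave 673 genes higher and 321 lower in human than in macaque mice, against 565 and 448 with TMM, and moved the median of all genes by 0.02. With batch as a random block the correlation within batches was 0.00534, a consensus over all genes that does not describe any single member. No paired analysis was possible because the labels give no replicate numbers shared between donor groups. Depth limits Hspa1a, Hspa1b and Hspb1, with means of 14.5, 18.6 and 17.8 counts.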
